A study of Mus musculus with 12 samples.

Results

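The 9 genes described here act in necroptosis and apoptosis, which are regulated forms of cell death. They are Ripk1, Ripk3, Mlkl, Casp8, Bax, Bcl2l1, Bcl2l11, Mcl1 and Bcl2. They were taken by symbol from a matrix of raw read counts and a matrix of TPM, and they make up 9 of the 53801 genes in each. All 9 were among the 15306 genes that had enough reads to be tested. RNA came from whole hearts of C57BL/6N mice, and the study's methods describe male animals of 10 to 14 weeks. Acute myocardial infarction (AMI) was induced by permanent ligation of the left anterior descending coronary artery. There were 4 hearts from sham-operated mice, 4 hearts collected 1 day after AMI and 4 hearts collected 7 days after AMI. The labels give no collection day for individual sham hearts, so operation and time since surgery cannot be told apart. The comparisons ask how transcripts of the cell death machinery differ between the sham heart and the infarcted heart early and late.

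Necroptosis starts when the kinases RIPK1 and RIPK3 assemble and RIPK3 phosphorylates MLKL, which then breaches the plasma membrane. Caspase-8 cleaves these kinases and so holds necroptosis back, and it also starts apoptosis downstream of death receptors. In the mitochondrial route of apoptosis, BH3-only proteins such as BIM, encoded by Bcl2l11, release BAX from guardian proteins of the BCL-2 family, and BAX permeabilises the outer membrane. All of these steps are controlled by protein contacts, phosphorylation or cleavage, so a transcript level is not a measure of cell death.

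Library totals were 24558117, 26573727, 23253576 and 24806576 counts in sham replicates 1 to 4. They were 25541858, 32166517, 30158419 and 29994671 counts on day 1, and 28738082, 23204551, 24597384 and 25134239 counts on day 7. Levels below are CPM, the counts scaled to library size and by the trimmed mean of M-values (TMM), unless TPM is named. TMM factors were 0.781 to 0.917 in sham hearts, 1.01 to 1.06 on day 1 and 1.10 to 1.17 on day 7, so they moved with the groups. A floor of 3 counts stood for 0.0895 to 0.156 CPM, which covers counting error only. Mitochondrially encoded genes took 17.9% to 27.4% of counts in sham hearts, 12.1% to 15.9% on day 1 and 13.2% to 19.2% on day 7. Their part in the results was not tested. In whole-heart RNA, fewer cells of a type and less RNA per cell cannot be told apart.

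On day 1 after AMI, 6 of the 9 genes rose against sham: Ripk1, Ripk3, Mlkl, Casp8, Bax and Bcl2. Bcl2l11 fell, and Bcl2l1 and Mcl1 did not pass the test. A gene was called when its adjusted p was under 0.05 in edgeR's quasi-likelihood test with Benjamini-Hochberg adjustment over all 15306 genes. Over 21 alternative ways of processing, the Bcl2 call was kept in 13 and the Bcl2l11 call in 18. Of all genes tested, 22.0% were called higher and 19.9% lower. With a fold change of at least 2 also required, 2 of the 9 genes passed, Ripk3 and Mlkl, against 10.8% of all genes in either direction. That count was 1 without sham replicate 3, sham replicate 4 or day 1 replicate 2, as Mlkl then stood under the limit. In 5 of the 9 genes all 4 day 1 hearts lay above all 4 sham hearts, as was so for 19.6% of all genes. In TPM this held for 6 of the 9 genes and 37.6% of all genes, and on library sizes alone for 6 and 37.8%. The median log2 fold change was 0.50 over the 9 genes and -0.012 over all genes. As the 9 genes were chosen with earlier results known, these counts are descriptions.

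On day 7 after AMI, 6 genes again rose against the same 4 sham hearts: Ripk1, Ripk3, Mlkl, Casp8, Bax and Bcl2. Bcl2l1 fell, and Bcl2l11 and Mcl1 did not pass the test. Over all genes, 30.9% were called higher and 28.4% lower, and 21.2% were called at a fold change of at least 2 in either direction. In comparison, 5 of the 9 genes reached that fold change, namely Ripk1, Ripk3, Mlkl, Casp8 and Bcl2. The 6 genes that rose had no overlap between the day 7 and the sham hearts, as did 28.3% of all genes in that direction. In TPM this held for 8 of the 9 genes and 55.0% of all genes, and on library sizes alone for 7 and 48.8%. The count of 1 lower became 0 without any 1 of 7 hearts, sham replicates 1 and 2, day 1 replicates 1 and 3 and day 7 replicates 2, 3 and 4, as given for Bcl2l1. The median log2 fold change was 1.13 over the 9 genes and 0.026 over all genes.

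From day 1 to day 7, Ripk1, Casp8 and Bcl2 rose further, and Bcl2l1 and Mcl1 fell. Among all genes 24.2% were called higher and 22.8% lower in this comparison. At a fold change of at least 2 the count was 0 of 9 by edgeR, and also 0 by DESeq2 and limma, beside 11.2% of all genes. The log2 fold changes ran from -0.72 to 0.66. The count of 3 higher became 5 without sham replicate 1 or day 7 replicate 3. That of 2 lower became 1 without day 1 replicate 2 or 4 or day 7 replicate 1 or 4. On library sizes alone the counts were 6 higher and 1 lower, and with limma on TPM plus 1 they were 5 higher and 0 lower. All-gene shares called higher and lower were 31.2% and 14.2% on library sizes alone, and 35.3% and 8.51% on TPM plus 1. The hearts of both days did not overlap in the 5 called genes. That pattern held for 23.5% of all genes in the higher direction and 20.9% in the lower direction. In TPM it held for 5 genes higher and 1 lower, beside 33.5% and 8.37% of all genes.

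**Figure D1:**
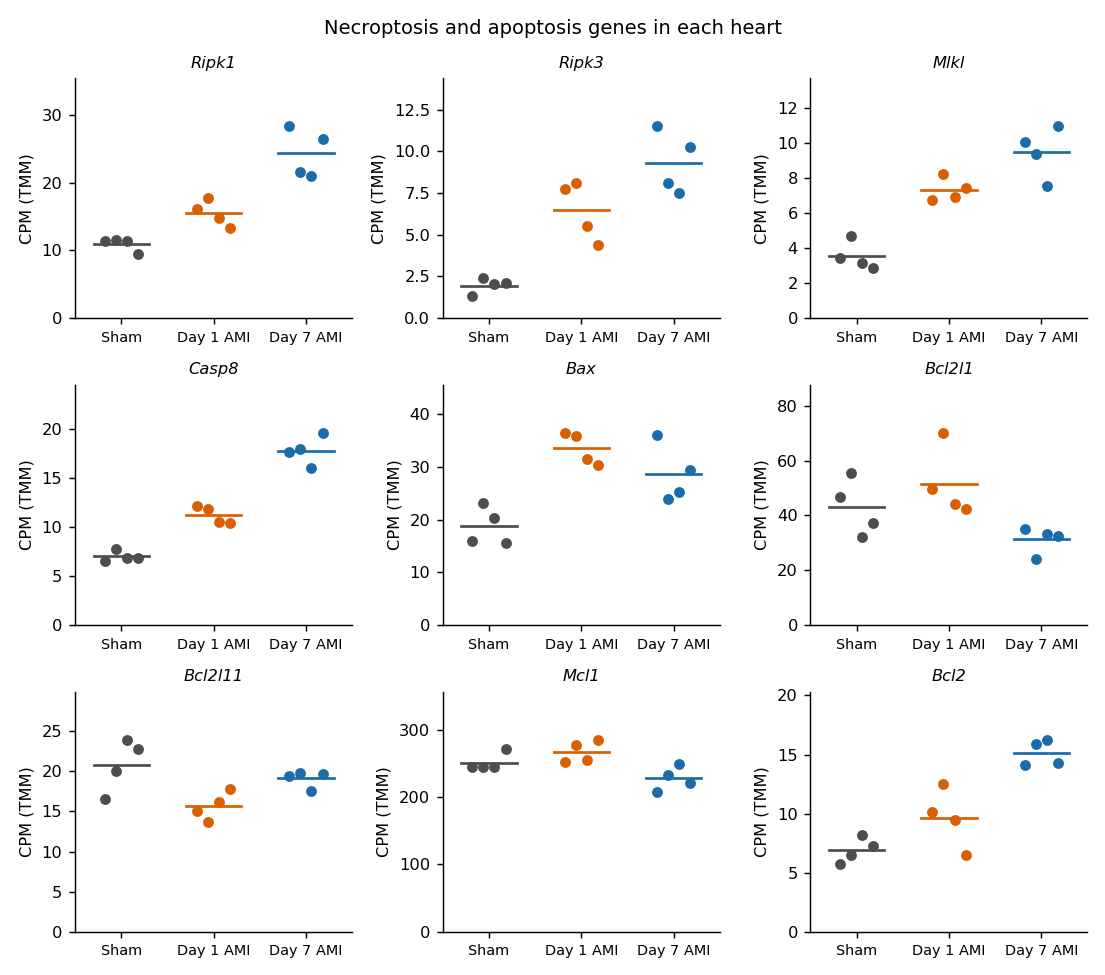
TMM-scaled CPM of each of the 9 genes in the 4 sham, 4 day 1 AMI and 4 day 7 AMI hearts. Points are hearts, lines are group means, and each vertical axis starts at 0. Ripk3 spans 1.30 to 2.38 CPM in sham hearts and 4.41 to 11.5 CPM after AMI.

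The necrosome genes come first. Ripk3, the kinase that phosphorylates MLKL, is annotated as ENSMUSG00000022221 on the minus strand of chr14:55784995-55788865 (GRCm38). Its level was 1.30, 2.38, 2.04 and 2.10 CPM in sham hearts, 7.76, 8.12, 5.53 and 4.41 CPM on day 1, and 11.5, 8.07, 7.49 and 10.2 CPM on day 7. Each AMI heart was above each sham heart, while the days 1 and 7 overlapped. These levels rest on 25 to 58 reads in sham hearts and 140 to 373 reads after AMI. Against sham the log2 fold change was 1.71 (SE 0.24, adjusted p = 0.000115) on day 1 and 2.24 (SE 0.24, adjusted p = 2.55e-06) on day 7. Between days it was 0.53 (SE 0.21, adjusted p = 0.0524), and this p was 0.0287 to 0.251 over 21 alternatives, below 0.05 in 6 of them. Leaving out sham replicate 1 (0.0410), day 1 replicate 1 (0.0447), day 1 replicate 2 (0.0289) or day 7 replicate 3 (0.0378) brought it under 0.05. In TPM, sham replicate 2 held 4.89, above the 3.82 of day 1 replicate 4, so the day 1 and sham hearts overlapped on that scale. That sham heart had 2.05 TPM per CPM of Ripk3, against 0.613 to 0.692 in the other sham hearts.

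Promoters of Ripk1 and Ripk3 are shown because, among the 13 windows of the 9 genes, these alone matched the GAS or interferon patterns named below; they were picked after the matches were seen. They are RefSeq windows on GRCm38.p6, 250 bases before to 50 bases after an annotated start, written 5′ to 3′ on the gene's strand. The Ripk3 window is chr14:55788808-55789107, minus strand. The Ripk1 window is chr13:34002624-34002923, plus strand, the second of 2 starts listed, and the window of the first start held no match to any pattern searched. Capitals mark matches on either strand to TTCNNNGAA, the gamma-activated sequence (GAS), or to GAAANNGAA, the core of the interferon-stimulated response element.
Ripk3 promoter: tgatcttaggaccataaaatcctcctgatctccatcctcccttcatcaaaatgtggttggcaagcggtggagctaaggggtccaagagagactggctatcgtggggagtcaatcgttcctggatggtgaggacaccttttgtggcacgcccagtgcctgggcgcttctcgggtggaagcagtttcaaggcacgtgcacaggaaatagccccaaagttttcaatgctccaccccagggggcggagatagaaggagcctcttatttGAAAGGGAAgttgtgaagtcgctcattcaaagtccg
Ripk1 promoter 2: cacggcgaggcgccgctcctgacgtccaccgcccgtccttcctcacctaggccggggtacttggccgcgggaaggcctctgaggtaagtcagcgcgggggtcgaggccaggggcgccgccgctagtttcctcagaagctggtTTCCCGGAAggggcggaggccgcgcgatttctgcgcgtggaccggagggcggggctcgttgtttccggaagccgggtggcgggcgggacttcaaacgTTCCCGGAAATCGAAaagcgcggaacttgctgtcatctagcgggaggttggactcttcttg
The Ripk3 window holds 1 match, GAAAGGGAA, which begins 15 bases into the transcribed side. The Ripk1 window holds 2 matches to the GAS pattern, both TTCCCGGAA, beginning at -108 and -11, and 1 match to the other core, GAAATCGAA, beginning at -5 and sharing bases with the second GAS match. Over 32851 mouse promoters of the same length, 8.30% held a GAS match and 8.56% a match to the other core. Among all 13 windows listed for the 9 genes, 1 held the former and 2 the latter. TGANTCA, the AP-1 pattern, was in none of the 13 windows and in 7.81% of all promoters. An NF-kB pattern was found in 1 Bcl2l1 window (4.51% of all promoters), and a p53 half-site pattern in the Bax window (8.36% of all promoters). A match of letters describes the window and says nothing about binding.

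Mlkl encodes the pseudokinase that executes necroptosis (ENSMUSG00000012519, minus strand of chr8:111311797-111338177). Its level was 3.44, 4.68, 3.15 and 2.87 CPM in sham hearts, 6.77, 8.24, 6.90 and 7.44 CPM on day 1, and 10.0, 9.35, 7.53 and 10.95 CPM on day 7. All AMI hearts were above all sham hearts, and day 7 replicate 3 lay within the day 1 range. By edgeR the log2 fold change was 1.05 (SE 0.17, adjusted p = 0.000282) on day 1 and 1.42 (SE 0.17, adjusted p = 6.31e-06) on day 7. The day 1 value stood close to the 2-fold limit: it was 0.995 without sham replicate 3, 0.96 without sham replicate 4 and 0.99 without day 1 replicate 2. Between days the log2 fold change was 0.37 (SE 0.16, adjusted p = 0.0669), and this p was 0.0222 to 0.186 over 21 alternatives, below 0.05 in 7 of them. It was 0.0363 without sham replicate 2 and 0.0297 without day 7 replicate 3.

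Ripk1 encodes the kinase that joins death receptor signalling to both forms of death (ENSMUSG00000021408, plus strand of chr13:34002363-34037147). Its level was 11.3, 11.6, 11.4 and 9.47 CPM in sham hearts, 16.1, 17.8, 14.8 and 13.3 CPM on day 1, and 28.3, 21.6, 21.0 and 26.4 CPM on day 7. The 3 groups were fully separate, in the order sham, day 1, day 7. The log2 fold change was 0.50 (SE 0.12, adjusted p = 0.00532) on day 1, 1.15 (SE 0.12, adjusted p = 2.93e-06) on day 7 and 0.65 (SE 0.12, adjusted p = 0.000566) between days. Exons of Ripk1 overlap the pseudogene Gm17084 on the same strand over 6.12% of their bases and Serpinb6a on the opposite strand over 2.89%. Gm17084 held 2 to 39 reads per library and Serpinb6a 1674 to 3737, against 198 to 918 for Ripk1. Strand use in counting is not given in the sources used here. Serpinb6a held more reads than Ripk1, so how much of the Ripk1 count is uncertain is not known.

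Casp8 encodes caspase-8, the protease that starts apoptosis and restrains necroptosis (ENSMUSG00000026029, plus strand of chr1:58795374-58847503). Its level was 6.57, 7.80, 6.84 and 6.89 CPM in sham hearts, 12.2, 11.9, 10.6 and 10.4 CPM on day 1, and 17.7, 17.9, 16.0 and 19.6 CPM on day 7. As with Ripk1, the 3 groups did not overlap. Tests gave a log2 fold change of 0.68 (SE 0.10, adjusted p = 0.000195) on day 1, 1.34 (SE 0.10, adjusted p = 1.57e-07) on day 7 and 0.66 (SE 0.10, adjusted p = 0.000102) between days. Of its 75-base words, 1.95% are shared with Gm20257, which held 5 to 27 reads per library.

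**Figure D2:**
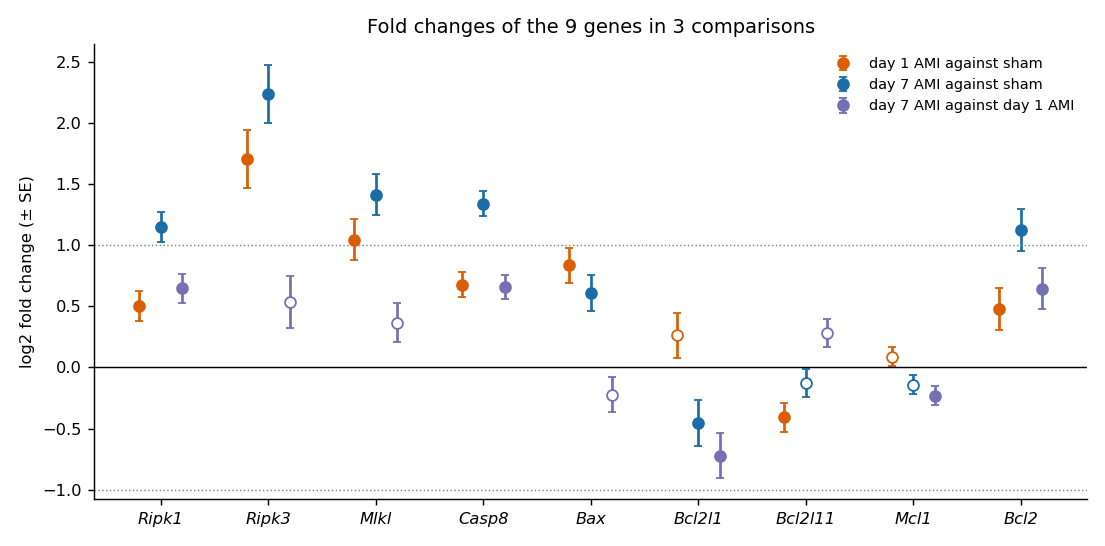
Log2 fold change with its standard error for the 9 genes in day 1 AMI against sham, day 7 AMI against sham and day 7 against day 1 AMI. Filled points have an adjusted p under 0.05, dotted lines mark a 2-fold change, and both sham comparisons share the 4 sham hearts. Ripk3 has a log2 fold change of 2.24 on day 7. The day 7 values of Bcl2l1, Bcl2l11 and Mcl1 lie below 0 here and above 0 on the TPM scale.

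The next genes belong to the mitochondrial route. Bax encodes a pore former of the outer mitochondrial membrane (ENSMUSG00000003873, minus strand of chr7:45461697-45466898). Its level was 16.0, 23.1, 20.2 and 15.6 CPM in sham hearts, 36.4, 35.7, 31.5 and 30.3 CPM on day 1, and 35.9, 23.9, 25.3 and 29.4 CPM on day 7. All AMI hearts were above all sham hearts, by a narrow margin between day 7 replicate 2 and sham replicate 2. The log2 fold change was 0.84 (SE 0.15, adjusted p = 0.000557) on day 1 and 0.61 (SE 0.15, adjusted p = 0.00237) on day 7. The days overlapped, and their difference of -0.22 (SE 0.14, adjusted p = 0.216) did not pass the test. Gm45808 overlaps 12.2% of the Bax exon bases on the same strand and held at most 31 reads in any library, against 306 to 1198 for Bax.

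Bcl2 encodes the founding guardian protein, which holds BAX and BH3-only proteins in check (ENSMUSG00000057329, minus strand of chr1:106538178-106714274). Its level was 5.74, 6.49, 8.20 and 7.22 CPM in sham hearts, 10.2, 12.5, 9.49 and 6.50 CPM on day 1, and 14.1, 15.9, 16.2 and 14.3 CPM on day 7. Day 1 replicate 4 lay inside the sham range, whereas all day 7 hearts were above the other 8 hearts. The log2 fold change was 1.13 (SE 0.17, adjusted p = 6.03e-05) on day 7 and 0.65 (SE 0.17, adjusted p = 0.00550) between days. On day 1 it was 0.48 (SE 0.17, adjusted p = 0.0360), with p from 0.00280 to 0.235 over 21 alternatives. That call was lost without sham replicate 1 (0.0969), 2 (0.0740) or 4 (0.0578), and without day 1 replicate 1 (0.0787), 2 (0.132) or 3 (0.0591). It was also lost when only sham and day 1 hearts were fitted (0.0655). An antisense transcript, D630008O14Rik, overlaps 6.09% of the Bcl2 exon bases and held at most 1 read.

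Bcl2l1 encodes the guardian BCL-XL (ENSMUSG00000007659, minus strand of chr2:152780668-152831728). Its level was 46.7, 55.5, 32.1 and 37.3 CPM in sham hearts, 49.7, 70.0, 44.3 and 42.3 CPM on day 1, and 35.0, 24.1, 33.4 and 32.5 CPM on day 7. Every day 7 heart was below every day 1 heart, and the sham hearts overlapped with both days. From day 1 to day 7 it fell by 0.72 on the log2 scale (SE 0.19, adjusted p = 0.00573), a call lost on the TPM scale (log2 fold change -0.39, adjusted p = 0.107 with limma on TPM plus 1). Against sham the log2 fold change was 0.26 (SE 0.19, adjusted p = 0.269) on day 1 and -0.46 (SE 0.19, adjusted p = 0.0476) on day 7. The day 1 value was called higher on library sizes alone (0.54, adjusted p = 0.0343) and on TPM plus 1 (0.54, adjusted p = 0.0318, limma). The day 7 p ranged from 0.0169 to 0.803 over 21 alternatives, and the value turned to 0.15 on the TPM scale. The call was lost without sham replicate 1 (0.102) or 2 (0.164), without day 1 replicate 1 (0.0576) or 3 (0.0520), and without day 7 replicate 2 (0.137), 3 (0.0598) or 4 (0.0705). Day 1 replicate 2 set much of the day 1 level, as the log2 fold change against sham was 0.082 without that heart. Sham replicates 1 and 2, the high sham hearts for Bcl2l1, also had the highest summed erythroid markers of any heart, 1178 and 4450.4 CPM against 241 to 969 CPM in the other 10 hearts. Day 1 replicate 2 had the highest summed neutrophil markers, 190.1 CPM. Their part in the result was not tested.

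Mcl1 and Bcl2l11 complete the mitochondrial route. Mcl1, a guardian with a short-lived protein (ENSMUSG00000038612, plus strand of chr3:95658788-95663176), ranged from 244 to 271 CPM in sham hearts, 253 to 285 CPM on day 1 and 208 to 249 CPM on day 7. Against sham its log2 fold change was 0.090 (SE 0.079, adjusted p = 0.386) on day 1 and -0.14 (SE 0.079, adjusted p = 0.140) on day 7. On day 1 it was called higher on library sizes alone (0.36, adjusted p = 0.00356) and on TPM plus 1 (0.56, adjusted p = 0.000258, limma). From day 1 to day 7 it fell by 0.23 (SE 0.079, adjusted p = 0.0275) on the log2 scale, with p from 0.00477 to 0.683 over 21 alternatives. That call was lost without day 1 replicate 2 (0.0580) or 4 (0.0654), and without day 7 replicate 1 (0.0762) or 4 (0.0726). It was also lost on library sizes alone (-0.11, adjusted p = 0.337), without the edgeR filter (adjusted p = 0.0507) and on TPM plus 1 (-0.048, adjusted p = 0.678, limma). Bcl2l11 (ENSMUSG00000027381, plus strand of chr2:128126038-128162547) ranged from 16.6 to 23.9 CPM in sham hearts, 13.7 to 17.8 CPM on day 1 and 17.5 to 19.8 CPM on day 7. Its groups overlapped in each comparison in CPM. In TPM its day 7 hearts lay above all sham and all day 1 hearts, and on library sizes alone above all day 1 hearts. On day 1 it fell by 0.41 (SE 0.12, adjusted p = 0.0117) on the log2 scale, a call lost on library sizes alone (-0.14, adjusted p = 0.413) and on TPM plus 1 with limma (-0.024, adjusted p = 0.888). Over 21 alternatives this p was 0.00237 to 0.893. The log2 fold change of Bcl2l11 was -0.12 (SE 0.12, adjusted p = 0.369) on day 7 and 0.28 (SE 0.12, adjusted p = 0.0560) between days; the latter p was 0.0279 without sham replicate 1 and 0.0322 without day 1 replicate 4, within 0.0131 to 0.153 over 21 alternatives.

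For some changes on day 7 against sham the sign depends on the scaling. With library sizes alone, the median log2 fold change of all 15306 genes moved to 0.26 on day 1, 0.43 on day 7 and 0.15 between days. For TPM plus 1 in limma, those medians were 0.23, 0.44 and 0.18. The day 7 value against sham of Mcl1 was 0.26 on library sizes alone with edgeR (adjusted p = 0.0185) and 0.51 on TPM plus 1 with limma (adjusted p = 0.000166), so it was called higher on both. That of Bcl2l11 was 0.27 with edgeR (adjusted p = 0.0980) and 0.39 with limma (adjusted p = 0.0106), called higher on the latter alone of these 2. Relative to the median of all genes, these were -0.17 and 0.073 for Mcl1, and -0.16 and -0.042 for Bcl2l11. Bcl2l1 stood below the median on both scales, by -0.48 and -0.29. Ripk3 relative to the median was 2.21 and 1.65 on day 7, Ripk1 1.13 and 1.04, Mlkl 1.39 and 1.11, Casp8 1.31 and 1.24, Bcl2 1.10 and 0.67, and Bax 0.58 and 0.67. The second value of each pair uses TPM plus 1. At low TPM, as for Bcl2 and Ripk3 in sham hearts, the added constant also shrinks the fold change. Ripk1, Ripk3, Mlkl, Casp8 and Bax were higher against sham on both days in all 21 alternatives for each comparison, and so was Bcl2 on day 7. Ripk1, Casp8 and Bcl2 were higher on day 7 than on day 1 in all 21.

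Levels between genes were compared in TPM, which allows for gene length. In sham hearts Mcl1 was the most abundant, at 91.5 ± 10.4 TPM (SD, n = 4), followed by Bax at 32.9 ± 8.37 and Bcl2l1 at 23.9 ± 6.38. These last 2 overlapped, and a gap separated them from the remaining 6 genes. Bcl2l11 stood at 5.35 ± 0.866 TPM, Casp8 at 4.05 ± 0.670, Ripk1 at 3.00 ± 0.477, Mlkl at 2.46 ± 0.899, Ripk3 at 2.12 ± 1.87 and Bcl2 at 1.12 ± 0.172, each overlapping its neighbour in that order. Sham replicate 2 carries much of the Ripk3 mean, which is 1.19 TPM without it. On day 1 Mcl1 was at 134.6 ± 4.87 TPM, Bax at 72.3 ± 6.75 and Bcl2l1 at 35.2 ± 8.68, with no overlap between them. Then came Casp8 at 8.25 ± 0.933, Ripk3 at 7.34 ± 3.18, Mlkl at 5.92 ± 0.583, Ripk1 at 5.62 ± 0.767 and Bcl2l11 at 5.22 ± 0.517 TPM, each overlapping the next. Bcl2 was the lowest at 1.92 ± 0.478 TPM, apart from the others. By day 7 Mcl1 was at 130.3 ± 6.64, Bax at 71.5 ± 15.2 and Bcl2l1 at 26.2 ± 3.95 TPM, again apart. Casp8 at 15.1 ± 1.69, Ripk3 at 11.2 ± 3.24, Ripk1 at 10.2 ± 2.11, Mlkl at 8.99 ± 1.57 and Bcl2l11 at 7.32 ± 0.736 TPM overlapped in sequence. Bcl2 remained the lowest at 3.56 ± 0.112 TPM. The transcripts of the necrosome kinases, lower than Bcl2l11 on average in sham hearts, were thus above it on average on both days. Their ranges overlapped that of Bcl2l11 on day 1 and did not on day 7. TPM also climbed against CPM from group to group. For Mcl1 the TPM per CPM was 0.316 to 0.397 in sham hearts, 0.491 to 0.523 on day 1 and 0.533 to 0.605 on day 7. The Mcl1 level in TPM was therefore 77.1 to 100.6 in sham hearts and 120.3 to 140.0 after AMI, with no overlap, although its CPM overlapped.

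Ratios of 2 genes inside a heart, taken on TPM plus 0.1, were compared for 4 pairs over 12 tests with an exact permutation test counting both directions. With 4 hearts against 4 the smallest p is 0.0286, and the smallest adjusted p was 0.147, so no ratio passed. Over 12 tests a ratio with fully separate groups could not pass on its own, so this outcome does not speak against a difference. The log2 ratio of Bax to Bcl2 in TPM was 4.70, 5.12, 4.70 and 4.45 in sham hearts, 5.21, 4.91, 5.10 and 5.54 on day 1, and 4.69, 3.95, 4.03 and 4.40 on day 7. All day 7 hearts were below all day 1 hearts, with a difference of -0.92 (exact p = 0.0286, adjusted p = 0.147). Against sham the difference was 0.45 (exact p = 0.0857) on day 1 and -0.47 (exact p = 0.0571) on day 7. With 1 in place of 0.1 added to TPM these were 0.68 (exact p = 0.0286) and -0.0063 (exact p = 0.971), so the day 7 difference depends on the constant added. From CPM, with no constant, it was -0.52 (exact p = 0.0857). The log2 ratio of Bax to Bcl2l1 was 0.086, 0.39, 1.02 and 0.35 in sham hearts, 1.22, 0.70, 1.12 and 1.20 on day 1, and 1.65, 1.49, 1.20 and 1.40 on day 7. Here all day 7 hearts were above all sham hearts, with a difference of 0.97 (exact p = 0.0286, adjusted p = 0.147). That difference was 0.60 (exact p = 0.0571) on day 1 and 0.37 (exact p = 0.0857) between days. From CPM the difference between days was 0.47 (exact p = 0.0286, adjusted p = 0.0571), with all day 7 hearts above all day 1 hearts.

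For the necrosome, the log2 ratio of Ripk3 to Ripk1 was -1.66, 0.47, -1.15 and -0.80 in sham hearts, 0.29, 0.80, 0.39 and -0.34 on day 1, and 0.33, -0.062, 0.19 and 0.0037 on day 7. Sham replicate 2 stood inside the AMI range, and the other sham hearts were below it. Against sham the difference was 1.07 (exact p = 0.114) on day 1 and 0.90 (exact p = 0.143) on day 7, and these TPM differences were 1.49 and 1.32 without sham replicate 2, and 0.78 and 0.61 without sham replicate 1, the ends of the range over left-out hearts. From CPM in place of TPM the differences were 1.21 and 1.12 (exact p = 0.0286 each, adjusted p = 0.0571), with all 4 sham hearts below all 8 AMI hearts. Between days the TPM difference was -0.17 (exact p = 0.543), and its sign turned without day 1 replicate 2. The Mlkl to Ripk1 log2 ratio differed from sham by 0.39 (exact p = 0.114) on day 1 and 0.14 (exact p = 0.486) on day 7, and by -0.25 (exact p = 0.0857) between days. From CPM the day 1 difference was 0.58 (exact p = 0.0286, adjusted p = 0.0571), and in TPM it was 0.54 (exact p = 0.0286) without sham replicate 2. The day 7 difference was 0.29 without sham replicate 2, 0.037 without sham replicate 3 and 0.076 without day 7 replicate 2, and that between days was -0.15 without day 1 replicate 4.

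**Figure D3:**
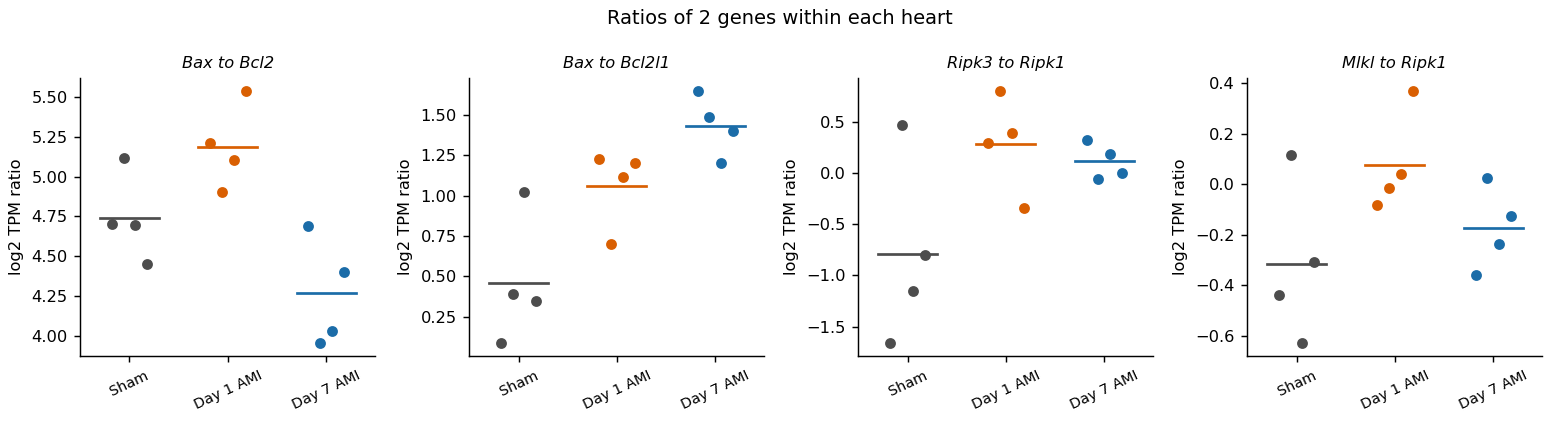
Log2 ratio of TPM of 2 genes within each of the 4 sham, 4 day 1 AMI and 4 day 7 AMI hearts; lines are group means and the vertical axes do not start at 0. The Bax to Bcl2 ratio separates day 7 from day 1, and the Bax to Bcl2l1 ratio separates day 7 from sham.

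Other genes of the same pathways came from lists described in the processing notes, and no test was run on a list. With edgeR on TMM scaling, the counts below stand beside 22.0% of all genes higher and 19.9% lower on day 1, and 30.9% and 28.4% on day 7. Of the 9 complex II and necrosome genes, which include 4 of those above, 6 rose and 1 fell on day 1, and 7 rose and 1 fell on day 7. Their median log2 fold change was 0.62 and 1.15, beside -0.012 and 0.026 over all genes. On library sizes alone and on TPM plus 1 in limma, 8 of these 9 were higher on each day. On those scales 41.1% and 40.3% of all genes were called higher on day 1, and 53.8% and 61.6% on day 7. Zbp1, a nucleic acid sensor that can engage RIPK3, rose by 1.63 (SE 0.50, adjusted p = 0.0182) on day 1 and 2.27 (SE 0.50, adjusted p = 0.00133) on day 7 on the log2 scale. Its day 1 call was lost without sham replicate 3 (0.0507) or 4 (0.0549) or day 1 replicate 2 (0.0591), within a range of 0.00273 to 0.0591, and over 21 alternatives its value was 1.36 to 2.83 on day 1 and 1.63 to 3.47 on day 7. Ticam1, the TLR adaptor TRIF, rose by 0.62 (SE 0.11, adjusted p = 0.000525) on day 1. Ppm1b, a phosphatase reported to act on RIPK3, fell by 0.79 (SE 0.086, adjusted p = 3.30e-06) on day 7. With limma on TPM plus 1 its log2 fold change was -0.20 (adjusted p = 0.0827), the highest p of 21 alternatives. Ppm1b shares 9.59% of its 75-base words with another gene.

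Upstream of these, 4 of 6 tested death receptor and ligand genes rose on day 1, with a median of 0.93. On day 7, 5 rose and 1 fell, with a median of 1.07. The gene that fell was Fas, with a log2 fold change of -0.49 (SE 0.15, adjusted p = 0.0132). Tnf, the ligand, rose by 1.97 (SE 0.49, adjusted p = 0.00554) and 2.05 (SE 0.49, adjusted p = 0.00231), and without sham replicate 2 by 3.05 and 3.13. Over 21 alternatives the values were 0.90 to 3.05 and 1.07 to 3.13. Tnfrsf10b, the TRAIL receptor, rose by 1.27 (SE 0.22, adjusted p = 0.000467) on day 1, and Tnfrsf1b, the type 2 TNF receptor, by 1.72 (SE 0.18, adjusted p = 2.95e-06) on day 7. Fasl was not tested, with at most 8 reads in a library. In complex I and its ubiquitin regulators, 6 of 17 genes rose and 1 fell on day 1, and 5 rose and 3 fell on day 7, with medians of 0.031 and 0.0046. On TPM plus 1 in limma, 12 and 14 of the 17 were higher and 0 lower, beside 40.3% and 61.6% of all genes higher and 4.82% and 6.68% lower, so this list's split follows the scaling. On that scale the genes called lower also dropped to 0 on day 7 in the complex II, guardian, death receptor and pyroptosis lists. Ikbke, a kinase able to phosphorylate RIPK1, rose by 1.79 (SE 0.24, adjusted p = 8.40e-05) and 2.12 (SE 0.24, adjusted p = 3.92e-06). The receptor adaptor Tradd rose by 0.81 (SE 0.15, adjusted p = 0.000969) on day 1, and Tnfaip3, encoding the ubiquitin editor A20, by 0.95 (SE 0.17, adjusted p = 0.000289) on day 7.

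In the BCL-2 family, 4 of 7 tested guardians rose on day 1, and on day 7, 4 rose and 2 fell; the medians were 0.48 and 1.13. Of the 4 that rose, 3 are the copies Bcl2a1a, Bcl2a1b and Bcl2a1d, and with only the most abundant copy counted the medians of the remaining 5 genes are 0.26 and -0.14. All 7 were called higher on day 1 both on library sizes alone and on TPM plus 1 in limma, beside 41.1% and 40.3% of all genes, and 0 were lower on day 7 on either. On day 7, 10.8% and 6.68% of all genes were called lower on those scales. Bcl2a1b rose by 3.15 (SE 0.32, adjusted p = 1.78e-05) and 3.49 (SE 0.32, adjusted p = 7.60e-07). Bcl2a1d averaged 0.0771 CPM in sham hearts, under the floor, and 1.63 CPM on day 1 (adjusted p = 9.83e-05), so no fold is given. These near-identical copies share 68.4% and 67.6% of their 75-base words with other genes, and the counting could have split their reads, so both values are uncertain. Bcl2l2, encoding BCL-W, had a day 7 log2 fold change of -0.25 (SE 0.086, adjusted p = 0.0207), which turned to 0.14 on library sizes alone (adjusted p = 0.274) and was called higher by limma on TPM plus 1 (0.34, adjusted p = 0.0220) and TPM plus 0.1 (0.35, adjusted p = 0.0216). Over its 21 alternatives p was 0.00290 to 0.274, and it was over 0.05 without sham replicate 2 (0.0611) or 3 (0.0523) and without day 7 replicate 2 (0.0600), 3 (0.0521) or 4 (0.0619). A same-strand gene shares 11.5% of the words of Bcl2l2. Bcl2l10 had no reads. All 3 pore formers rose on both days, with medians of 0.89 and 0.79. Bak1, the partner of Bax in function, rose by 0.89 (SE 0.12, adjusted p = 0.000109) and 0.79 (SE 0.12, adjusted p = 6.92e-05), and Ggnbp1, annotated in 2 entries, overlaps 7.35% and 18.2% of its exon bases on the opposite strand. Bok, another relative, rose by 0.92 (SE 0.18, adjusted p = 0.000993) and 1.68 (SE 0.18, adjusted p = 2.35e-06).

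Of 10 BH3-only genes, 2 rose and 3 fell on day 1, and 4 rose and 3 fell on day 7, with medians of 0.010 and 0.0010. On TPM plus 1 in limma, 5 were higher and 0 lower on day 1, and 7 higher and 1 lower on day 7, beside 40.3% and 61.6% of all genes higher. Lower calls then took 4.82% and 6.68% of all genes. On library sizes alone 5 were higher and 1 lower on day 1, beside 41.1% and 6.93%. With TMM scaling, Bcl2l11, Hrk and Bnip3l fell on day 1, and Bnip3, Hrk and Bik fell on day 7. Bnip3, the most abundant of the list, averaged 188 CPM in sham hearts. On day 7 Bnip3 fell by 0.96 (SE 0.22, adjusted p = 0.00186) on the log2 scale. Pmaip1, encoding NOXA, rose by 2.35 (SE 0.51, adjusted p = 0.00244) and 2.46 (SE 0.51, adjusted p = 0.000837) from 0.333 CPM in sham hearts. Its values over 21 alternatives were 0.75 to 3.31 and 0.92 to 3.41. Bid, the substrate that links caspase-8 to mitochondria, rose by 1.45 (SE 0.26, adjusted p = 0.000609) and 1.86 (SE 0.26, adjusted p = 2.59e-05), and 17.7% of its exon bases overlap Bcl2l13 on the opposite strand. Among 14 genes of the apoptosome, caspases and their inhibitors, 4 rose and 5 fell on day 1, and 7 rose and 5 fell on day 7, with medians of -0.053 and 0.13. That split also follows the scaling, as 8 were higher and 0 lower on day 1 both on library sizes alone and on TPM plus 1 in limma, and 3 were lower on day 7 on the latter. Of all genes, 41.1% and 40.3% were higher and 6.93% and 4.82% lower on those scales on day 1. On TPM plus 1, 6.68% of all genes were lower on day 7. Birc5, a mitotic protein also listed as an inhibitor, rose by 1.32 (SE 0.41, adjusted p = 0.0184) and 3.93 (SE 0.38, adjusted p = 1.24e-06); its day 1 p was 0.0557 without sham replicate 4, the highest of a range from 0.000491, and its day 1 value was 1.02 to 2.76 over 21 alternatives.

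Of 6 pyroptosis genes, 3 rose on day 1, and 4 rose and 1 fell on day 7, with medians of 0.56 and 1.12. In edgeR on library sizes alone 5 were higher on day 1, beside 41.1% of all genes. Gsdmd, the pore former of pyroptosis, rose by 0.59 (SE 0.17, adjusted p = 0.0121) on day 1, 1.12 (SE 0.17, adjusted p = 5.71e-05) on day 7 and 0.53 (SE 0.16, adjusted p = 0.0158) between days. The last call was lost without day 7 replicate 4 (0.0604, range from 0.00307). Nlrp3, the inflammasome sensor, rose by 2.00 (SE 0.38, adjusted p = 0.000950) on day 1 and by 1.19 (SE 0.39, adjusted p = 0.0156) on day 7, a call lost without day 7 replicate 1 (0.0538) or 4 (0.0509). Casp1 rose by 0.92 (SE 0.30, adjusted p = 0.0224) and 1.49 (SE 0.29, adjusted p = 0.000536), the first lost without sham replicate 1 (0.0624) or 2 (0.0521) or day 1 replicate 2 (0.0803). Its day 1 p was 0.00593 to 0.166 over 21 alternatives, and that of Nlrp3 on day 7 was 0.00127 to 0.0538. The Nlrp3 values were 0.93 to 2.26 on day 1 and 0.77 to 1.66 on day 7 over the same alternatives.

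**Figure D4:**
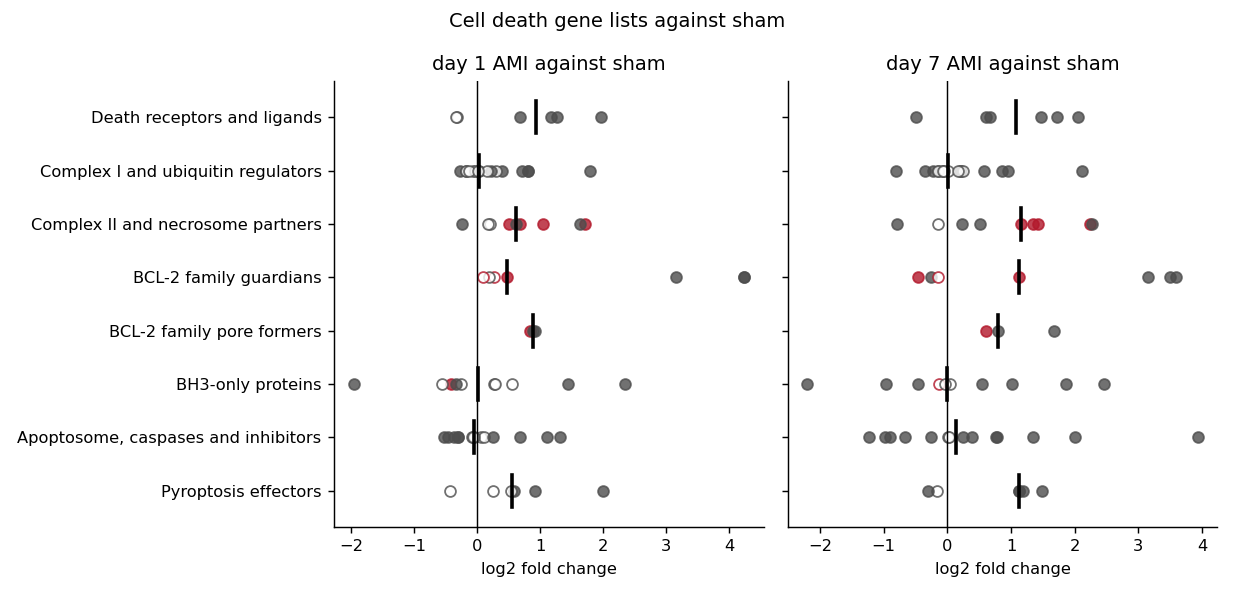
Log2 fold change of every tested gene of 8 cell death lists on day 1 and day 7 against sham. Red points are the genes described in full, filled points have an adjusted p under 0.05, and black bars are list medians. All 3 pore formers lie above 0 on both days. On TPM the points of the complex I list move upward, and Bcl2l1, Bcl2l2, Bcl2l11 and Mcl1 on day 7 cross 0.

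Markers of heart and blood cell types moved with the groups. The 11 cardiomyocyte markers, most abundant Myh6, summed to 95809.6 to 109787 CPM in sham hearts, 58122 to 72339 CPM on day 1 and 50326 to 58770.2 CPM on day 7. Of these, 9 fell on each day, and none was at 0. On library sizes alone 6 were lower on day 1 and 8 on day 7, and on TPM plus 1 in limma 4 and 7. The 12 monocyte and macrophage markers, led by Lyz2, summed to 323 to 516 CPM in sham hearts, 595 to 844 CPM on day 1 and 932 to 1428 CPM on day 7, and 10 and 12 of them rose. The 10 neutrophil markers, led by Csf3r over all hearts, summed to 32.4, 59.1, 4.12 and 2.77 CPM in sham hearts, 101.8, 190.1, 54.1 and 86.7 CPM on day 1, and 17.8, 11.4, 13.7 and 42.2 CPM on day 7. Of 9 tested, 6 rose on day 1, and 2 rose and 1 fell on day 7. Sham replicates 1, 3 and 4 had 1, 3 and 4 of the 10 at 0, day 1 replicate 3 had 1, and day 7 replicates 1, 2 and 3 had 1, 2 and 1. Ly6g, which was not tested, had at most 8 reads. The neutrophil sum of sham replicate 2 was above that of day 1 replicate 3.

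The 8 fibroblast markers, led by Col3a1, summed to 1093 to 1335 CPM in sham hearts, 1746 to 2370.2 CPM on day 1 and 8207 to 16464 CPM on day 7, with 6 higher and 1 lower on day 1 and 8 higher on day 7. The 10 lymphocyte markers, led by Cd4, summed to 3.08 to 6.79, 4.00 to 9.41 and 9.12 to 15.9 CPM, with 1 and 6 of 9 tested higher, and Cd3d was not tested. Sham replicates 1 and 2 each had 1 of these 10 at 0. The 6 endothelial markers, led by Cdh5, summed to 816 to 955, 705 to 756 and 1123 to 1264 CPM, with 2 lower on day 1 and 5 higher on day 7. The 5 erythroid markers, led by Hbb-bs, which shares 51.5% of its words with Hbb-bt, summed to 491 to 4450.4, 420.4 to 649 and 241 to 969 CPM, with 3 lower on each day. On library sizes alone the erythroid list had 1 and 0 lower, the endothelial list 0 lower on day 1 and the lymphocyte list 3 higher on day 1. On TPM plus 1 in limma the erythroid list had 0 lower on each day, the endothelial list 1 higher and 0 lower on day 1, and the neutrophil list 0 lower on day 7. Ripk1, Ripk3, Mlkl and Casp8 rose on the same days as most monocyte and macrophage and fibroblast markers. The part of these cell types in the results was not tested. With sham replicates 1 and 2 left out, chosen after seeing their neutrophil and erythroid sums, Ripk1, Ripk3, Mlkl, Casp8 and Bax stayed higher on both days. The Bcl2 call on day 1 (adjusted p = 0.235) and the Bcl2l1 call on day 7 (log2 fold change -0.15, adjusted p = 0.534) were lost in that fit. It gained Bcl2l1 higher on day 1 (0.57, adjusted p = 0.0395) and Bcl2l11 lower on day 7 (-0.29, adjusted p = 0.0457), and from day 1 to day 7 Ripk3, Mlkl and Bcl2l11 higher (adjusted p = 0.0422, 0.0350 and 0.0249). Bcl2 on day 7 stayed higher but under a 2-fold change (0.97).

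**Figure D5:**
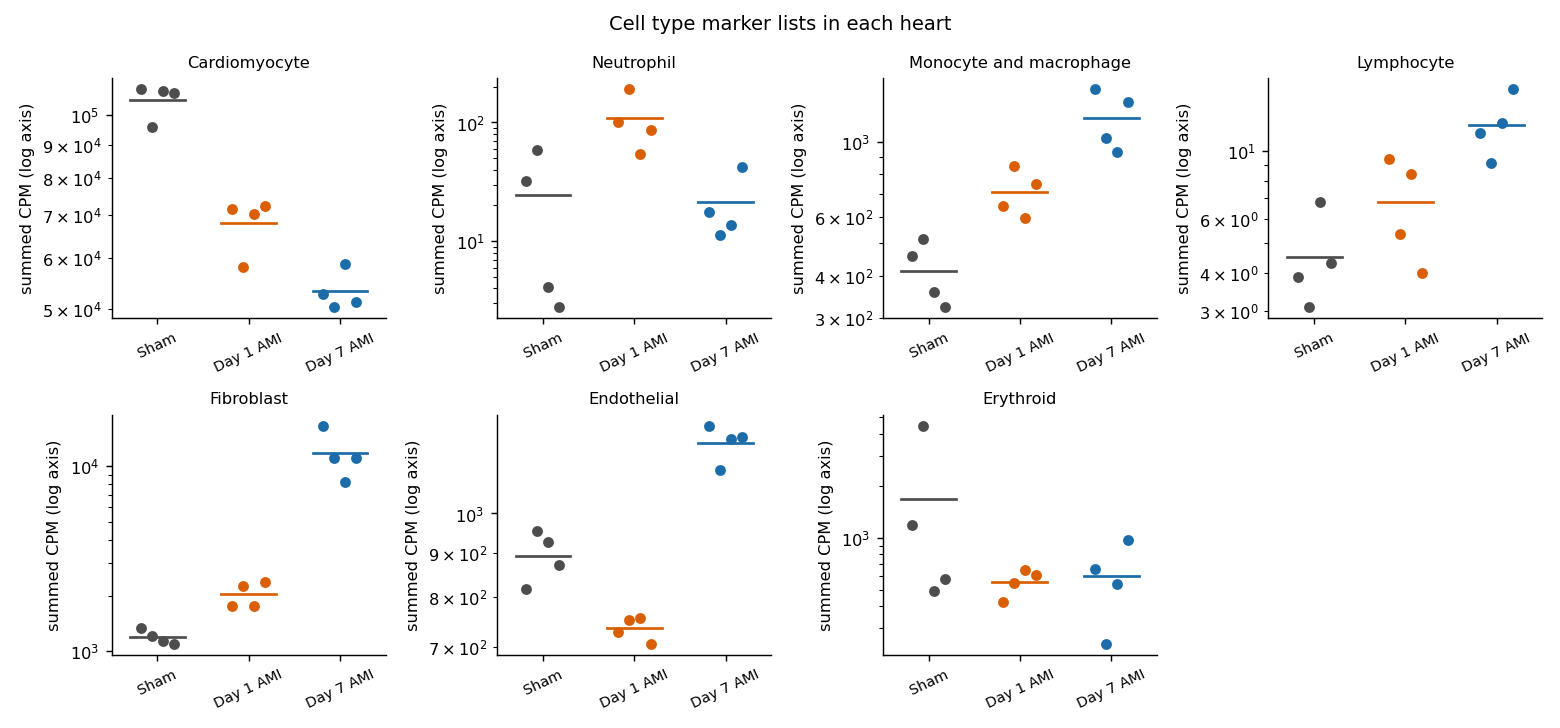
Summed TMM-scaled CPM of 7 marker lists in each heart, on a logarithmic axis; points are hearts and lines are group means. Cardiomyocyte sums are 95809.6 CPM or more in sham hearts and 72339 CPM or less after AMI, and macrophage and fibroblast sums are highest on day 7.

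For the 5 genes called at a 2-fold change, the genes with the nearest profile were sought among 13433 genes over the 12 hearts. Nearness was the root-mean-square distance between centred log2 CPM profiles. Casp8 had the closest match, Apaf1, at a distance of 0.061, followed by Mcm2 at 0.10 and Eef1a1 at 0.12. Apaf1 encodes the scaffold of the apoptosome, and Eef1a1 shares 26.6% of its 75-base words with other genes and is uncertain. Ripk1 was nearest to Myh10 at 0.11, Exo5 at 0.12 and Coro1c at 0.12. Mlkl was nearest to Rab7b, Tmem173 and Sirpa, each at 0.15. Ripk3 was nearest to Slc1a4 at 0.20, B4galnt1 at 0.20 and Amz1 at 0.24, and Bcl2 to Alpk1, Mical1 and N4bp3, each at 0.16. Genes on the opposite strand overlap 20.7% of the exon bases of B4galnt1, 15.0% of Mical1, 6.81% of Amz1 and 3.85% of Coro1c. With strand use in counting not given, their counts are uncertain too.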

How the data were processed

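The raw counts per gene and the TPM were deposited by the authors for 12 whole-heart libraries. Per the methods and the submitters' processing notes, reads were called with CASAVA 1.8, trimmed with Cutadapt and aligned with STAR 2.4.0j to mm10 (GRCm38), and the authors computed TPM with RSEM. The counting tool, its strand setting and the treatment of multi-mapping reads are not given in the sources used here. The labels name each library as a separate replicate of its group, and p-values measure the spread between these hearts. No 2 libraries of a group agreed within sampling noise (chi-square per degree of freedom at least 9.41 over 18 pairs).

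Counts were tested with edgeR 4.0.16 in R 4.3.3: filterByExpr by group, TMM factors, and 1 quasi-likelihood fit of 3 groups over 15306 genes, with Benjamini-Hochberg adjustment. The fit shares 1 estimate of spread, and the 2 comparisons with sham share the sham hearts. A gene rose or fell at an adjusted p under 0.05, and a fold change of 2 was a second rule. Ratios were taken in TPM plus 0.1. Steps were tested on simulated data. Alternatives were DESeq2 1.42.0, RLE factors, library sizes alone, no filter, 2 groups alone, the replicate number as a block, limma 3.58.1 on log2 TPM plus 1 or plus 0.1, and each library left out. Leaving out 2 sham hearts, the TPM overlap counts, the TPM check for values far from their group, TPM means with a heart left out, the Bcl2a1 copies counted once and the list alternatives were added after seeing the data. Python 3.11.15 and matplotlib 3.10.9 drew the plots.

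Named genes were the 9 genes and, from each pathway list and comparison with sham, the 2 others with the largest called change and at least 1 CPM in the higher group. Not every gene so named is described in the report. Also named were the 3 genes nearest in profile to each gene called at 2-fold, the most abundant marker of each list, and Gsdmd. Genes at 0 or near the floor, genes outside the test and library details were named after their values were seen. So were Fas, Bnip3, Bnip3l, Hrk and Bik, which are left out of the tally of alternatives. The genes and lists were chosen with earlier results of these data known. The pathway lists were death receptors and ligands, complex I and ubiquitin regulators, complex II and necrosome partners, BCL-2 family guardians, pore formers, BH3-only proteins, apoptosome with caspases and inhibitors, and pyroptosis effectors.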

Additional observations from a re-analysis of the deposited data

Results flagged for a closer look

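Among the CPM of the 9 genes and the 4 ratios, in groups of 4 hearts, 2 values lay far from the other 3. Ripk1 in sham replicate 4 was 9.47 CPM, against 11.3 to 11.6 CPM in the other sham hearts. Mcl1 in the same heart was 271 CPM, against 244 to 245 CPM in the others. Such a distance arises by chance in about 1 in 20 groups, and 39 groups were looked at. The same check on TPM, added after seeing the data, found 3 of 27 groups: Ripk3 in sham replicate 2 (4.89 against 0.80 to 1.41), Mlkl in sham replicate 2 (3.81 against 1.97 to 2.07) and Mcl1 in day 7 replicate 1 (120.3 against 132.9 to 134.0).

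The effect of AMI against sham differed between the days for 5 genes, by the edgeR test of day 7 against day 1, in which the sham hearts cancel. The difference of log2 fold changes, day 7 minus day 1, was 0.65 for Ripk1, 0.66 for Casp8 and 0.65 for Bcl2. It was -0.72 for Bcl2l1 and -0.23 for Mcl1. On TPM plus 1 in limma these 2 were -0.39 and -0.048 and did not pass the test.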

How the results depend on the processing

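Over 567 alternative values of the 27 log2 fold changes of the 9 genes, 500 kept their direction and side of the threshold, 31 lost the call, 28 gained one and 8 reversed. For the 35 changes of other named genes, 714 of 735 were kept, 18 lost the call and 3 reversed. Ratios are left out of this tally, since no ratio passed adjustment in any setting run, and at this size a single ratio could not.

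The reversed values were those of day 7 against sham. On library sizes alone they were 0.27 for Bcl2l11, 0.26 for Mcl1 and 0.14 for Bcl2l2. With limma on TPM plus 1 they were 0.15 for Bcl2l1, 0.39 for Bcl2l11, 0.51 for Mcl1 and 0.34 for Bcl2l2, and on TPM plus 0.1 they were 0.16, 0.45, 0.51 and 0.35. On the TPM scales those of Bcl2l11, Mcl1 and Bcl2l2 were called higher, as was Mcl1 on library sizes alone. These scalings leave the rising median of all genes in place. The Ripk3 to Ripk1 ratio between days ranged from -0.38 to 0.00040 over left-out libraries.

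Counts of the 9 genes changed as follows. Higher on day 1, 6 by edgeR: 8 on library sizes alone and 8 on either TPM scale, 5 with those 2 groups alone, and 5 to 6 over left-out libraries. The shares of all genes called higher were 41.1% on library sizes alone, 40.3% on TPM plus 1 and 41.8% on TPM plus 0.1, against 22.0%. Lower on day 1, 1 by edgeR: 0 on library sizes alone and 0 on either TPM scale. All-gene shares called lower were 6.93% on library sizes alone, 4.82% on TPM plus 1 and 4.98% on TPM plus 0.1, against 19.9%. At a 2-fold change on day 1, 2 by edgeR: 3 on library sizes alone, 3 on TPM plus 1, 4 on TPM plus 0.1, and 1 to 2 over left-out libraries. The day 1 median of all genes was 0.26 on library sizes alone, 0.23 on TPM plus 1 and 0.31 on TPM plus 0.1. The 10.8% of all genes found with TMM therefore cannot stand beside counts on those scales. Higher on day 7, 6 by edgeR: 7 on library sizes alone and 8 on either TPM scale. All-gene shares called higher were then 53.8% on library sizes alone, 61.6% on TPM plus 1 and 61.8% on TPM plus 0.1, against 30.9%. At a 2-fold change on day 7, 5 by edgeR: 6 on library sizes alone, 6 on either TPM scale, and 4 with 2 sham hearts left out. The day 7 median of all genes was 0.43 on library sizes alone, 0.44 on TPM plus 1 and 0.57 on TPM plus 0.1. The 21.2% of all genes found with TMM therefore cannot stand beside counts on those scales. Lower on day 7, 1 by edgeR: 0 on library sizes alone, 0 on either TPM scale, and 0 to 1 over left-out libraries. The share of all genes called lower was 10.8% on library sizes alone, 6.68% on TPM plus 1 and 6.59% on TPM plus 0.1, against 28.4%. Higher on day 7 than day 1, 3 by edgeR: 6 on library sizes alone, 5 with those 2 groups alone, 5 on either TPM scale, 6 with 2 sham hearts left out after seeing the data, and 3 to 5 over left-out libraries. Of all genes, 31.2% were called higher on library sizes alone, 35.3% on TPM plus 1 and 34.1% on TPM plus 0.1, against 24.2%. Lower on day 7 than day 1, 2 by edgeR: 1 on library sizes alone, 1 without a filter, 0 on either TPM scale, and 1 to 2 over left-out libraries. Among all genes, 14.2% were called lower on library sizes alone and 12.9% without a filter, against 22.8%. On TPM plus 1 and plus 0.1 these shares were 8.51% and 8.28%. The cause was not tested.

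The replicate block left 0 of the 9 genes lower on day 7, since Bcl2l1 was at -0.41 (adjusted p = 0.0649), and changed no other call of the 9. The labels do not say whether the numbers pair the hearts. Same-numbered libraries had correlations of -0.24 to 0.23, 4 of 12 over 0.1, and 2 of 12 libraries correlated best with their own number. No clear pairing by number was seen, which does not exclude one. With the block, 3137 genes were higher and 2746 lower on day 1, against 3360 and 3043 without it.

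Of genes called against sham, 52.5% were higher on day 1 and 52.1% on day 7, and 51.4% between days. On library sizes alone these were 85.6%, 83.2% and 68.8%, and on TPM plus 1 they were 89.3%, 90.2% and 80.6%, and on TPM plus 0.1 they were 89.3%, 90.4% and 80.5%. Genes called higher on day 1 were 6289 on library sizes alone, 6171 on TPM plus 1 and 6391 on TPM plus 0.1, and lower 1061, 737 and 762. On day 7 they were 8237, 9423 and 9462 higher and 1659, 1023 and 1009 lower, against 4728 and 4353. Between days 4772, 5402 and 5220 were higher, against 3701, and 2168, 1302 and 1268 were lower, against 3496.

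With 4 hearts a group, small changes of abundant genes such as Mcl1 depend on the scaling, and Ripk3 in sham hearts rests on few reads. Whole-heart libraries cannot place a transcript in a cell type, and sham hearts carry no collection day.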
